A study of Mus musculus with 8 samples.

Results

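The cells described here are those that carry the annotation NK_T_cytotoxic in single-cell RNA profiles of mouse lung, 488 of 41,106 cells in all. They were chosen by that label alone and assigned to a mouse by the library name of each cell. The 8 mice were C57BL/6 Sftpc-CreERT2-mTmG animals, in which tamoxifen, given at 8 to 10 weeks of age, turns on a green reporter in cells that express Sftpc, the surfactant protein C gene of type II alveolar cells; all other cells keep a red reporter. From 2 weeks later, 4 mice breathed smoke of 3R4F research cigarettes (CS) for 6 hours a day on 5 days a week for 10 months, and 4 mice breathed room air (RA). All 8 mice, RA included, carried both alleles and had received tamoxifen. Right lungs were digested, CD45+ and CD45- cells were sorted and mixed back at 10% and 90%, and each mouse gave 1 library. The 10% fixed by the sort means that these libraries do not give the number of immune cells per lung. The paper measured the concentration of CD45+ cells in lung lysates separately.

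Natural killer (NK) cells are innate lymphocytes that kill stressed or infected cells without an antigen receptor built by gene rearrangement. They weigh signals from activating and inhibitory surface receptors, many of which bind MHC class I molecules on the target, and then release granules that hold perforin and granzymes. Cytotoxic T cells use the same granules but are recognised by the T cell receptor, its CD3 chains and, in most of them, CD8. Both kinds are found in the healthy lung.

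The label was first compared with its markers. Levels are given as transcripts per 10,000 UMIs (unique molecular identifiers, 1 per captured RNA molecule) of a cell, averaged over the cells of 1 mouse and then over the 8 mice, so n is the number of mice. Nkg7, a granule membrane protein, was found in 95.3% of the 488 cells at 29.4 ± 4.65 (SD, n = 8). Ccl5, a chemokine, was found in 98.2% of cells, and Gzma, which codes for granzyme A, in 91.8% at 93.8 ± 19.4. In B cells, which should lack them and have a similar median depth (4,055 UMIs against 3,882 here), Nkg7 was found in 0.514% of cells, Ccl5 in 1.67% and Gzma in 0.686%. Whether those shares in B cells come from free RNA was not tested. The activating receptor Ncr1 was found in 74.0% of the cells against 1.19% of cells labelled T, Klrb1c (the NK1.1 antigen) in 61.5% against 2.99%, and the Ly49 receptor Klra8 in 42.6% against 0.621%. The genes that set the cells furthest apart from the next highest label, among genes found in at least 25% of them, were Ncr1, Klra8, Klra4 and Klrb1a. Because the label comes from clustering on the same transcripts, these levels are a description and were not tested.

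The part of the label that names T cells was not borne out by the CD3, CD8 and Trac transcripts. Cd3d was found in 12 of the 488 cells, Cd3e in 4 and Cd3g in 13, where 74.6%, 72.6% and 75.6% of cells labelled T had them. Cd8a was found in 2 cells, Cd8b1 in 1 and Cd4 in 1. Trac, the constant part of the T cell receptor alpha chain, was found in 3.89% of cells against 62.0% of T cells. Other receptor chains were not near 0. Trbc1, of the beta chain, was found in 68.2% of cells at a level of 4.03 ± 1.46 against 5.11 in T cells. Trbc2, the other beta constant gene, was found in 34.2% of cells against 80.0% of T cells, and Trdc, of the delta chain, in 11.5% against 6.78%. Cd247, the zeta chain of the receptor complex, was found in 59.4% against 76.9%. Of the 488 cells, 425 held a transcript of Ncr1, Klrb1c or Klra8 and no CD3 transcript, 15 held both, 6 held CD3 alone and 42 held neither. The 42 cells with neither were shallower (median 3,269 UMIs against 3,911) and still held Nkg7 at 15.0, Gzma at 37.6 and the adaptor Fcer1g at 14.5 per 10,000. Cells with CD8 transcripts lay under the T label instead: 664 of its 1,770 cells (37.5%) held Cd8a or Cd8b1, and of these 82.4% held Nkg7, 59.0% Ccl5 and 20.5% Gzma. The cells are therefore called NK_T_cytotoxic cells by their label, and most of them held a transcript of an NK marker. The bar plot of markers shows the NK, CD3, CD8, Cd4 and Trac genes, and leaves out Trbc1, Trbc2, Trdc and Cd247.

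**Figure D1:**
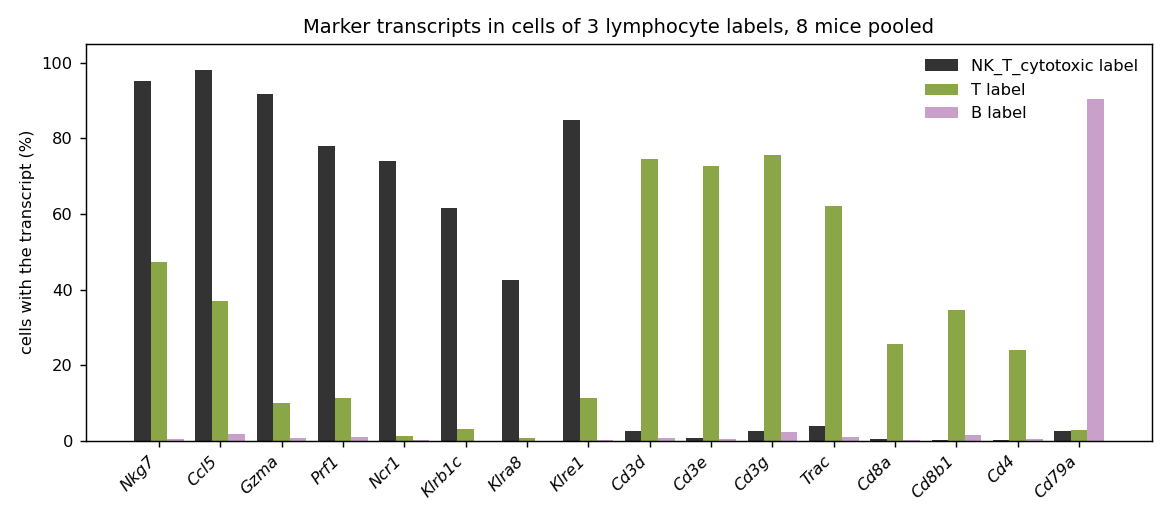
Percent of cells with at least 1 transcript of each gene (y axis) for 16 marker genes (x axis) in cells labelled NK_T_cytotoxic (488), T (1,770) and B (2,334), with the 8 mice pooled. NK receptor genes fill the NK_T_cytotoxic bars, while Cd3d, Cd3e, Cd3g, Trac, Cd8a, Cd8b1 and Cd4 are near 0 there and stand in the T bars.

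The 8 libraries held between 31,882,952 and 55,485,617 UMIs. The median depth of the NK_T_cytotoxic cells ran from 3,501 to 5,210 UMIs in the CS group and from 3,666 to 4,653 in the RA group; the means of these medians differed by 241 UMIs, less than mice of a group differed from each other (exact permutation test, two-sided, p = 0.714). CS replicates 1 to 4 gave 58, 92, 97 and 46 cells, and RA replicates 1 to 4 gave 19, 83, 56 and 37. RA replicate 1 lay below the minimum of 20 cells and entered a fit of these cells as a whole only in an added alternative. Its values are shown. Each of the 4 sequencing lanes held 1 CS and 1 RA library. In these cells Xist was at 7.68 and 7.78 per 10,000 in the CS libraries labelled male and at 0 in the CS libraries labelled female, which held the Y-linked Ddx3y at 0.914 and 0.625. The 4 RA libraries matched their sex labels, so both groups held 2 libraries with Xist and 2 with Ddx3y. Of the 488 cells, 6 had a barcode that also occurred in another library, out of 394 such cells in the series, and no barcode was shared by 2 of the 488.

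Markers of other cells were low but not level between groups. The 8 erythroid and platelet genes summed to 0.757 to 24.5 per 10,000 in the CS group and 0.240 to 1.34 in the RA group, none of the 8 at 0, and Hba-a1, a hemoglobin chain, reached 3.96 in CS replicate 3. The 10 epithelial genes summed to 1.62 to 18.5 against 2.46 to 8.83, none at 0, the 10 endothelial genes to 2.84 to 7.77 against 1.62 to 7.79, none at 0, and the 13 macrophage and monocyte genes to 4.55 to 6.62 against 4.39 to 6.97, with 2 at 0. Most of the macrophage and monocyte sum was Ly6c2, found in 50.8% of these cells and also in 23.8% of T cells; the other 12 genes summed to 0.364 to 0.926 against 0.294 to 2.08. Without Scgb1a1, a club cell gene, the epithelial sum was 1.62 to 4.33 with CS and 2.02 to 8.83 with RA, and without Hbb-bs, a hemoglobin chain, the erythroid and platelet sum was 0.492 to 10.3 against 0.230 to 0.652. Single mice carried the upper ends: Hbb-bs averaged 2.04 over the 8 mice with 14.2 in the highest mouse. Hba-a1 averaged 0.619 with 3.96, and Scgb1a1 averaged 2.78 with 15.2. The 8 B cell genes analysed summed to at most 3.15, with 1 at 0, the 10 fibroblast and mural genes to at most 0.724, the 6 neutrophil genes to at most 0.156 and the 5 mast cell and basophil genes to at most 0.042, with 3 at 0. A transcript of the B cell marker Ms4a1 was found in 0 of 488 cells, which allows a share of up to 0.615% of cells with a transcript and sets no limit on cells that express the gene. The part of these transcripts in the comparisons below was not tested.

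The share of NK_T_cytotoxic cells among immune cells did not separate the groups. They were 5.59%, 7.23%, 5.89% and 3.795% of immune cells in CS replicates 1 to 4, and 2.36%, 7.61%, 5.42% and 3.88% in RA replicates 1 to 4. The groups overlapped throughout. The mean was 5.63% ± 1.41 (SD, n = 4) in CS mice and 4.82% ± 2.24 (n = 4) in RA mice, a difference of 0.811 percentage points (exact two-sided permutation test over 8 mice, p = 0.600, where the smallest possible p is 0.0286). Without RA replicate 1, the mouse with 19 cells, the difference was -0.00858 points. Of lymphocytes alone they were 10.6% ± 1.05 in CS mice and 10.9% ± 4.40 in RA mice (exact permutation test, p = 0.8286). The plot of shares by mouse shows that counting error alone can span several points, at most from 6.60% to 15.3% of lymphocytes in RA replicate 1.

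**Figure D2:**
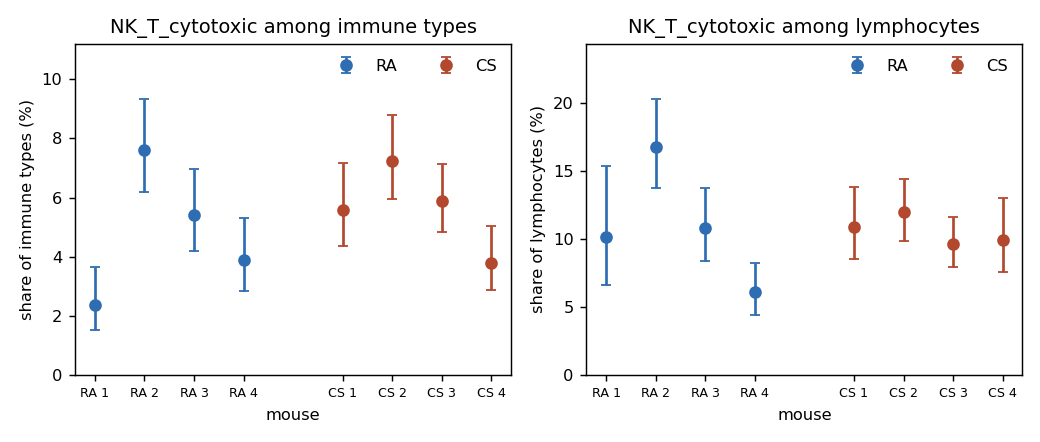
Share of NK_T_cytotoxic cells (y axis, percent) among immune cells (left) and among B, T and NK_T_cytotoxic cells (right) in each mouse (x axis: group and replicate). Points are mice and bars are 95% Wilson intervals, which cover counting error only; RA replicate 1 is lowest on the left at 2.36% and RA replicate 2 highest on the right at 16.7%.

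The cells varied among themselves in the receptors they carried. Ly49 receptors bind MHC class I and are switched on in a mosaic, so that each NK cell carries a few of the family. Of 9 Ly49 genes looked for, the median cell held transcripts of 2. No Ly49 transcript was found in 60 cells (12.3%), 1 in 101, 2 in 114, 3 in 129 and 4 in 55, with at most 6 in a cell. Klra9 was found in 50.4% of cells, Klra4 in 45.7%, Klra8 in 42.6%, Klra3 in 30.7% and Klra7 in 29.5%, against 2.05% for Klra5. Ly49 genes are near copies of each other, so reads may have been assigned between them with error, and a cell of low depth can hold a gene without a count.

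Markers of NK maturation split the cells in the same library. Klrg1, an inhibitory receptor of late maturation, and Cd27, a receptor of the earlier stage, were found together in 14 cells, Klrg1 alone in 183 (37.5%), Cd27 alone in 71 (14.5%) and neither in 220. Gzma averaged 132 ± 15.5 (SD over 8 mice) in cells with Klrg1 alone and 44.1 ± 16.8 in cells with Cd27 alone, and was higher in the former in 8 of 8 mice. Prf1, perforin, was at 10.1 ± 2.57 and 2.73 ± 1.49 and also higher in 8 of 8. Nkg7 (36.4 ± 8.13 and 20.4 ± 4.31) and Ccl5 (236 ± 33.6 and 110 ± 25.4) followed the same order in every mouse, while Gzmb, granzyme B, did so in 7 of 8. As few as 1 cell with Cd27 alone stood behind a mouse. Of genes that mark tissue-resident innate lymphocytes, Itga1 (CD49a) was found in 58 cells (11.9%, against 10.8% of T and 2.91% of B cells), Il7r in 36 (7.38%, against 70.3% and 1.37%) and Cxcr6 in 18 (3.69%, against 20.8% and 0.428%). Eomes, which together with Tbx21 drives the NK fate, was found in 39.1% of cells and Tbx21 in 83.6%.

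Each gene was then compared between 4 CS and 3 RA mice. Of 6,019 genes detected in 10% or more of the cells of one group, 0 passed limma's test at an adjusted p of 0.05 (Benjamini-Hochberg, 0% called; smallest adjusted p = 0.238), and 619 (10.3%) had an unadjusted p under 0.05. Differences are in mean log2 (transcripts per 10,000 + 1), CS minus RA, and understate the change of low genes. As simulated for this comparison, 26 of 50 genes with a 2-fold rise (52%) and 17 of 50 genes at 0.5 fold (34%) were recovered. Among those at a level of at least 1 per 10,000, 14 of 14 and 13 of 19 were. The simulation drew random counts around an assumed spread between mice, with no further variation between cells and no gradient by gene span. It also held genes at 4 fold and 0.25 fold, whose calls ease the adjustment for the rest. These shares therefore do not give the recovery in the real data. Every CS mouse lay below every RA mouse for 327 genes (5.43%) and above for 275 (4.57%). Of these, 55 of the 327 and 59 of the 275 passed the detection minimum only in the group where they were higher. No gene named in what follows passed the adjusted threshold, and the genes are given as values.

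Granule genes lay mostly lower in CS mice. Of 20 genes for granule and killing proteins, 16 were tested, and 14 had a lower and 2 a higher mean in CS mice. Over all genes tested, 3,016 were lower and 3,003 higher. The median difference was -0.15, beside 0.00 over all genes tested. For 2 of the 16, Gzma and Nkg7, the groups did not overlap, both lower in CS (background 5.43%). Both lie in the shortest of 5 bins of genes by genomic span, described further on, where that background was 9.99%. Gzma, a serine protease of the granules (chr13:113093825-113100981, GRCm38, minus strand), was at 81.3, 92.8, 75.7 and 67.0 per 10,000 in CS replicates 1 to 4 and at 98.5, 128, 98.5 and 109 in RA replicates 1 to 4. All 4 CS mice lay below all 4 RA mice. The log2 difference was -0.49 (SE 0.11, limma adjusted p = 0.238), a CS mean of 79.2 ± 10.8 (SD, n = 4) against 112 ± 14.7 (n = 3). Under quantile scaling between mice the difference was 0, since Gzma held the same rank in each mouse. Gzma was found in a similar share of cells throughout, from 86.2% to 93.8% with CS and from 89.2% to 92.9% with RA. The median cell of a CS mouse held between 56.4 and 91.1 per 10,000 and that of an RA mouse between 99.6 and 129.

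Nkg7 (chr7:43437073-43438249, plus strand) was at 24.98, 27.6, 25.4 and 23.4 in CS mice and at 34.2, 34.6, 30.7 and 34.3 in RA mice. Here too all 4 CS mice lay below all 4 RA mice. The log2 difference was -0.38 (SE 0.11, limma adjusted p = 0.337). Perforin and granzyme B gave lower CS means but overlapping groups. Prf1 (chr10:61297833-61304680, plus strand), which opens the target membrane, was at 5.31, 8.14, 5.45 and 5.22 in CS mice and at 5.06, 9.34, 6.59 and 12.1 in RA mice, with a log2 difference of -0.54 (SE 0.17, limma adjusted p = 0.337). Gzmb (chr14:56258838-56262260, minus strand) was at 7.73, 8.40, 7.51 and 5.21 against 26.03, 12.6, 6.79 and 14.2, with a log2 difference of -0.53 (SE 0.19, limma adjusted p = 0.374). The highest Gzmb value, 26.03, came from the RA mouse with 19 cells. The summed level of the 20 granule genes was 138 to 175 with CS and 184 to 231 with RA, so these sums did not overlap over the 8 mice. Gzma and Nkg7 made up most of them, and the other 18 genes summed to 47.6 to 54.6 with CS and 54.4 to 98.3 with RA, which overlapped. Fasl, Ctsw, Srgn and Serpinb9, whose protein shields the cell from its own granzyme B, overlapped between groups, with log2 differences of -0.24, -0.17, -0.10 and -0.17.

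**Figure D3:**
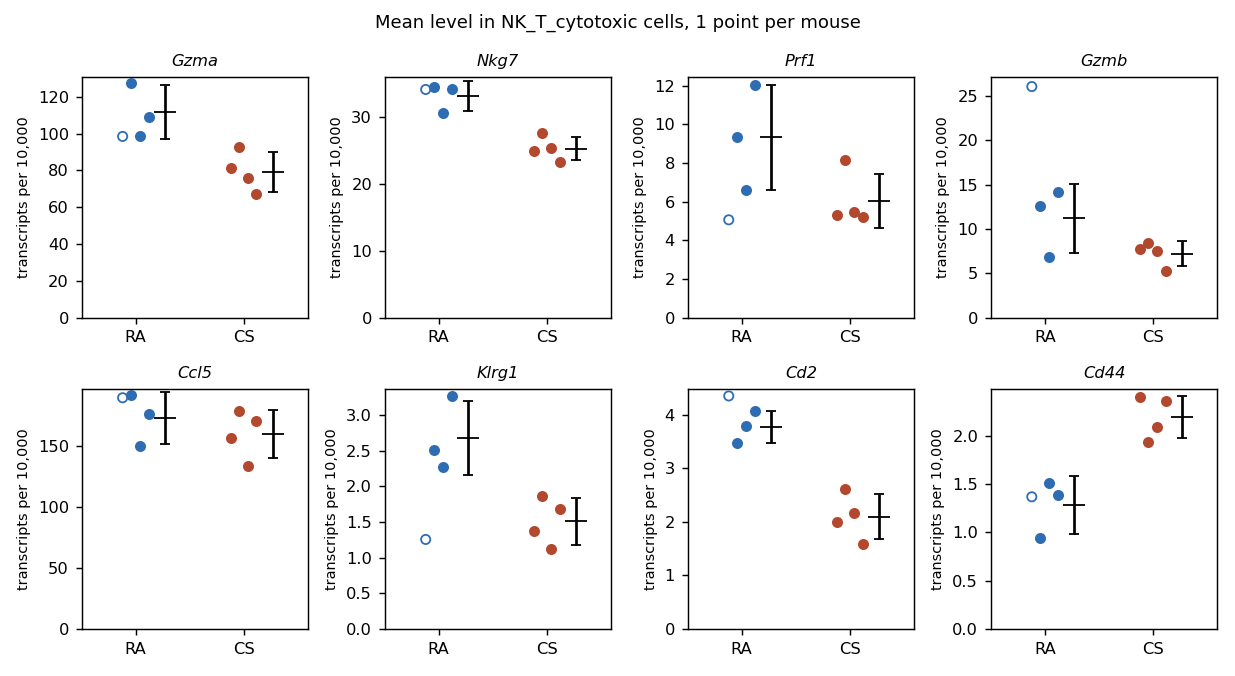
Mean level (y axis, transcripts per 10,000, from 0) of 8 genes in the NK_T_cytotoxic cells of each mouse, RA and CS on the x axis. Filled points are mice in the fit, the open point is RA replicate 1 (19 cells), and the bars give mean and SD of the filled points; Gzma, Nkg7 and Cd2 separate with CS below, Cd44 with CS above, and Prf1, Gzmb and Ccl5 overlap.

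Chemokines and cytokines did not separate the groups. Of 20 genes, 7 were tested, with a median difference of -0.13, and 0 had groups that did not overlap. Ccl5, which draws T cells and monocytes, was at 156, 179, 134 and 170 in CS mice and at 190, 192, 150 and 176 in RA mice, a log2 difference of -0.11 (95% interval -0.32 to 0.10). Ccl4, of the same family, was at 2.47, 8.49, 8.23 and 5.48 against 11.6, 7.08, 7.18 and 13.96, a log2 difference of -0.58 (SE 0.26, limma adjusted p = 0.448). Ifng, the interferon of NK and T cells, was at 0.444, 1.76, 1.65 and 1.21 against 0.137, 0.758, 1.30 and 3.36. For Ccl3 and Xcl1 the differences were -0.13 and 0.07, and for Ifng -0.25, all smaller than or close to their standard errors of 0.26, 0.21 and 0.24. The sign of Ccl3, Xcl1 and Ifng turned under alternative settings.

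Of 26 NK receptor and adaptor genes tested, 21 had a lower and 5 a higher mean in CS mice, with a median difference of -0.13. The groups did not overlap for 5, all lower in CS: Klrg1, Klre1, Fcer1g, Cd160 and Slamf7. The background was 5.43%, and 7.83% in bin 2 of the 5 bins by span, which holds this list's median span. Klrg1 (chr6:122270596-122282882, minus strand) was at 1.37, 1.87, 1.12 and 1.68 in CS mice and at 1.25, 2.52, 2.27 and 3.26 in RA mice. RA replicate 1 fell among the CS mice, so the groups separate only over the 7 mice in the fit, where the log2 difference was -0.55 (SE 0.14, limma adjusted p = 0.294). Klre1, a receptor of the NKG2 family, was at 4.47, 6.66, 6.42 and 6.14 against 7.18, 7.49, 10.4 and 7.82. Fcer1g, a signalling adaptor of several activating receptors, was at 19.2, 19.2, 20.05 and 15.4 against 26.5, 24.9, 23.5 and 25.9 (log2 difference -0.41, SE 0.12). Tyrobp (DAP12), another signalling adaptor, was at 18.5, 19.8, 21.8 and 15.7 against 22.7, 22.3, 21.4 and 24.8, with 1 CS mouse inside the RA range. Ncr1 was at 4.25, 5.001, 5.38 and 4.23 against 2.59, 6.65, 4.78 and 7.22, and overlapped. Klrb1c, Klrk1 (NKG2D) and Klrd1 (CD94) also overlapped, with log2 differences of -0.09, -0.07 and -0.13. Among the Ly49 genes, Klra4 and Klra7 had differences of 0.17 and 0.12 and Klra8 and Klra9 of -0.13 and -0.33, all with overlapping groups.

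Receptors for homing and cytokines went both ways. Of 36 genes, 25 were tested, 11 with a higher and 14 with a lower CS mean, and the median difference was -0.03. The groups did not overlap for 2 with CS higher (background 4.57%) and 2 with CS lower (background 5.43%). Cd44, which binds hyaluronan in the matrix, was at 2.40, 1.94, 2.09 and 2.36 in CS mice and at 1.37, 0.940, 1.51 and 1.39 in RA mice. All 4 CS mice lay above all 4 RA mice, with a log2 difference of 0.49 (SE 0.13, limma adjusted p = 0.301). Cd44 spans 90,525 bases, which puts it in the longest of 5 bins of genes by genomic span. In that bin 106 of 1,200 genes were separated with CS higher. The integrin chain Itgal of LFA-1 was at 5.36, 4.55, 4.64 and 4.90 against 3.74, 4.11, 4.25 and 3.09, also with CS above. Ifngr1, a chain of the interferon gamma receptor, was at 8.98, 10.1, 11.9 and 11.3 against 20.6, 14.1, 14.1 and 13.0, with all CS mice below. The chemokine receptor Cxcr4 was at 2.63, 1.46, 1.13 and 1.96 against 2.28, 1.26, 0.995 and 1.04, and overlapped. S1pr5 and Cx3cr1, receptors of mature NK cells in blood, and Itga1 and Cd69, markers of residence in tissue, overlapped with differences of -0.18, -0.05, 0.04 and -0.22. Cxcr3, Cxcr6, Itgae, Cd8a and Cd3e were under the detection minimum and not tested.

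The transcription factors had a median difference of 0.05 over 18 genes tested, and 2 were separated, both lower in CS (background 5.43%). Eomes and Tbx21 had differences of 0.09 (95% interval -0.18 to 0.37) and 0.02 (-0.32 to 0.36), and both changed sign under other settings. Ikzf3 was at 4.51, 4.53, 4.16 and 4.77 in CS mice and at 6.37, 7.34, 6.92 and 5.41 in RA mice, with all CS mice below. Lef1 was at 1.55, 1.65, 1.06 and 1.47 against 0.753, 2.21, 2.05 and 1.72 and separated only without RA replicate 1.

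Genes of MHC class I, the ligands that NK receptors read, were tested as the cells' own display. Of 17 genes, all tested, 12 had a lower CS mean, with a median difference of -0.15, and the groups did not overlap for 6, all lower in CS (background 5.43%, and 9.99% in the shortest of 5 bins of genes by genomic span, described further on; the median span of this list was 5,398 bases). H2-D1 was at 23.2, 22.7, 24.3 and 20.9 in CS mice and at 29.8, 26.6, 29.5 and 31.3 in RA mice, and H2-K1 at 22.5, 27.0, 27.9 and 28.8 against 41.2, 31.6, 34.8 and 30.0. Psmb8, a chain of the immunoproteasome that cuts peptides for loading, was at 2.04, 1.82, 2.32 and 1.62 against 3.30, 3.32, 2.86 and 3.45 (log2 difference -0.52, SE 0.13, limma adjusted p = 0.294). B2m, the shared light chain, overlapped with a difference of 0.07.

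Of 35 chaperones, 34 were tested, 30 with a lower CS mean, with a median difference of -0.17. The groups did not overlap for 5, all lower (background 5.43%, and 7.83% in bin 2 by span, which holds this list's median span). Calr, the calcium-binding chaperone of the endoplasmic reticulum, was at 2.15, 2.68, 3.35 and 2.73 in CS mice and at 4.06, 4.57, 3.62 and 3.57 in RA mice. The heat-inducible Hspa1a varied more within groups than between them, at 0.104, 2.35, 1.998 and 2.79 against 0, 0.515, 3.37 and 2.48, with the 2 lane 1 libraries lowest. Immediate-early genes, which respond to digestion of tissue, had a median of 0.02 over 29 tested, with 1 gene separated higher in CS (background 4.57%) and 1 lower (background 5.43%). The higher one, Nr4a3, was at 3.49, 5.16, 3.82 and 4.63 in CS mice against 3.60, 1.45, 2.86 and 3.17, and separated only without RA replicate 1. The lower one, Btg1, was at 7.41, 8.03, 8.24 and 7.02 against 10.8, 8.78, 10.4 and 11.6 (log2 difference -0.37, SE 0.13). Jund, with a difference of -0.39, overlapped, as did Fos and Jun with differences of 0.05 and 0.12. Of 11 interferon-stimulated genes tested, 1 did not overlap (Irf7, lower in CS at 0.221, 0.258, 0.481 and 0.210 against 1.07, 0.494, 0.555 and 0.975; background 5.43%), and the median was 0.00.

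The remaining lists gave few separated genes. Medians were 0.08 over 10 clock genes, -0.09 over 11 corticosteroid targets, 0.07 over 12 genes of the oxidant, xenobiotic and p53 response, -0.11 over 7 proliferation genes, 0.00 over 6 inhibitory receptors and -0.11 over 9 genes of the T cell receptor complex, with 0, 1, 1, 1, 1 and 1 genes whose groups did not overlap. The separated gene was lower in CS in the corticosteroid, proliferation and T cell receptor lists (background 5.43%) and higher in the oxidant and inhibitory receptor lists (background 4.57%). The separated gene of the oxidant list, Sesn2, passed the detection minimum only in CS cells. The plot of gene lists sets 8 of the lists side by side.

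**Figure D4:**
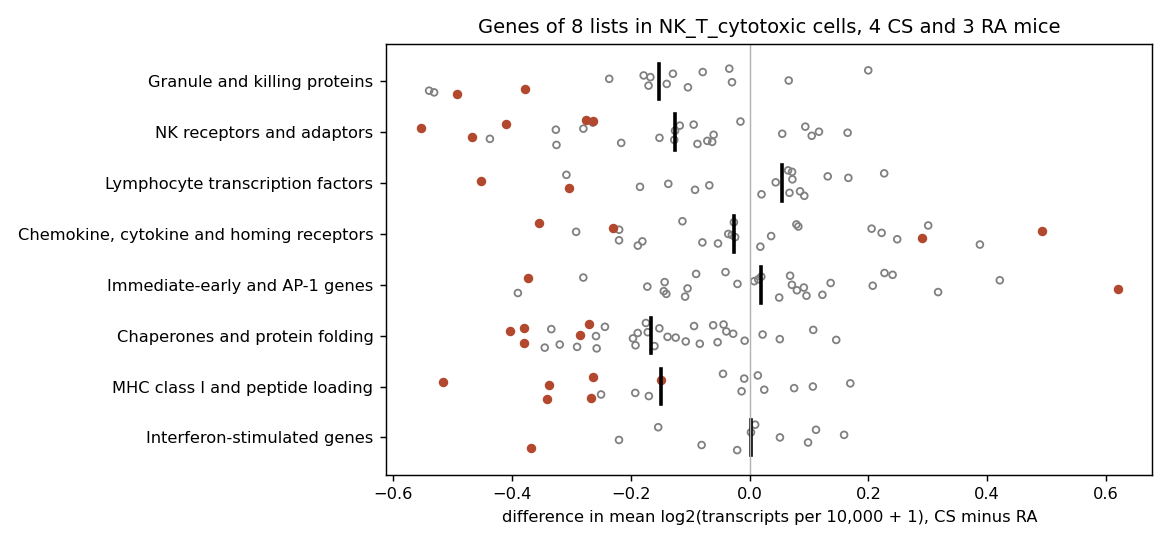
Log2 difference, CS minus RA (x axis), of each tested gene in 8 gene lists (y axis) in NK_T_cytotoxic cells of 4 CS and 3 RA mice. Each point is a gene, filled where all CS mice lie on one side of all RA mice in the fit, and the vertical bar is the list's median, from -0.17 for chaperones to 0.05 for transcription factors.

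Across all genes, those with the smallest unadjusted p among separated genes were lower Cd2, Cebpb, Gzma, 9930021J03Rik, Fkbp4 and Psmb8 and higher Xkr6, Gm28177, Cltc, Gm42418, Nfkb1 and Kalrn, none of them called. Over all 8 mice, 9930021J03Rik, Fkbp4, Xkr6, Cltc, Nfkb1 and Kalrn overlapped, since RA replicate 1 fell among the CS mice or, for Nfkb1, above them. Cd2, an adhesion receptor of NK and T cells (chr3:101275899-101287939, minus strand), was at 1.99, 2.61, 2.17 and 1.59 in CS mice and at 4.35, 3.47, 3.79 and 4.06 in RA mice (log2 difference -0.64, SE 0.14, limma adjusted p = 0.238). Cebpb, a transcription factor of inflammatory genes, was at 0.758, 1.26, 1.86 and 1.15 against 5.57, 2.03, 3.05 and 2.87 (log2 difference -0.70, SE 0.16). For both, all 4 CS mice lay below all 4 RA mice. Fkbp4, a co-chaperone of steroid receptors, was at 0.303, 0.478, 0.376 and 0.705 against 0.687, 0.805, 1.16 and 1.66, and 9930021J03Rik at 1.01, 1.52, 1.25 and 0.781 against 0.928, 2.06, 2.68 and 2.05. Of the higher genes, Cltc, the clathrin heavy chain, was at 3.29, 3.97, 2.96 and 2.74 against 2.85, 1.58, 2.13 and 1.59, and Nfkb1, a subunit of NF-kB, at 5.22, 6.21, 6.26 and 4.59 against 7.43, 2.99, 3.38 and 3.79, the 7.43 coming from the mouse with 19 cells. Gm42418, a transcript that overlaps ribosomal RNA, was at 25.3, 15.7, 16.8 and 17.0 against 14.1, 14.7, 9.26 and 8.89. Xkr6, Gm28177 and Kalrn stayed under 1 per 10,000 in every mouse and were found in 16.7%, 18.1% and 12.3% of CS cells and 3.98%, 7.95% and 3.98% of RA cells. They passed the detection minimum only in the CS group, where they are high, so no difference is read from them.

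The difference of a gene moved with its span on the genome. With the tested genes cut by span into 5 bins of equal size, the median log2 difference from the shortest to the longest bin was -0.07, -0.04, -0.01, 0.04 and 0.09. Groups lay apart with CS lower for 120 of 1,201 genes in the shortest bin (9.99%) and for 23 of 1,200 in the longest bin (1.92%). Genes longer than 50,000 bases gave 37.3%, 38.0%, 35.8% and 36.5% of transcripts in CS mice and 32.5%, 34.4%, 34.5% and 31.6% in RA mice (two-sided exact permutation test over 8 mice, p = 0.0286, the smallest possible). A gradient of the same direction stood in T cells, from -0.10 to 0.13, and in B cells, from -0.10 to 0.12, both over all 8 mice. Granule, MHC class I and NK receptor genes are short, with median spans of 14,284, 5,398 and 13,652 bases against 29,135 over all genes tested. Of the other lists, proliferation (4,386 bases), chemokine (4,741), T cell receptor (6,018) and chaperone genes (12,681) are also short, with median differences of -0.11, -0.13, -0.11 and -0.17, as are immediate-early (5,162) and interferon-stimulated genes (8,361), with 0.02 and 0.00. Among lists of longer genes, homing receptors (35,303), corticosteroid targets (56,539) and transcription factors (83,008) had median differences of -0.03, -0.09 and 0.05. In T cells the median differences were -0.24 for granule, -0.18 for NK receptor, -0.16 for chaperone and -0.12 for MHC class I genes. These T cell medians are over all 8 mice and over list members found in at least 10% of T cells of either group. They therefore cover other members than the medians of the label: Ncr1, for example, was found in 1.19% of T cells. The part of span in these differences was not tested gene by gene. When the mice were scaled over genes of at most 29,135 bases, an alternative added after the data were seen, the log2 difference of Gzma was -0.38 and that of Nkg7 -0.26, while that of Ccl5 was 0.01 and the median over all genes 0.04.

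**Figure D5:**
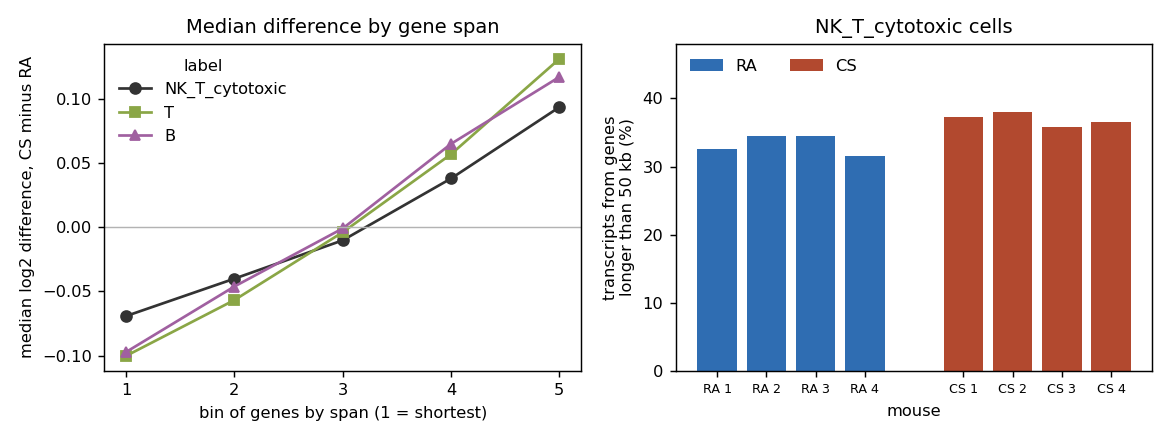
Left: median log2 difference, CS minus RA (y axis), in 5 bins of the tested genes by genomic span (x axis, 1 = shortest) for cells labelled NK_T_cytotoxic, T and B, which rise from -0.07 to 0.09, from -0.10 to 0.13 and from -0.10 to 0.12. Right: percent of transcripts from genes longer than 50 kb (y axis) in NK_T_cytotoxic cells of each mouse, between 31.6% and 34.5% in RA and between 35.8% and 38.0% in CS.

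Cells with an NK marker and no CD3 transcript, at least 10 of which were present in all 8 mice, were compared on their own. Of 6,009 genes, 0 passed the adjusted threshold (0%) and 563 had an unadjusted p under 0.05. CS lay below RA in all mice for 172 (2.86%), among them Gzma (log2 difference -0.46), Nkg7 (-0.38), Cd2 (-0.64), Cebpb (-0.98) and Fcer1g (-0.44), and not for Klrg1 (-0.41). List medians in the gated cells were -0.24 for granule, -0.07 for NK receptor, -0.07 for chaperone and -0.13 for MHC class I genes. In the label as a whole they were -0.15, -0.13, -0.17 and -0.15. The share of cells with an NK marker, expected at a common 1,500 UMIs per cell, was 71.2%, 69.0%, 75.7% and 69.2% in CS mice and 77.3%, 76.5% and 82.3% in RA replicates 2 to 4. The means were 71.3% ± 3.13 (n = 4) and 78.7% ± 3.16 (n = 3), with p = 0.0571 in a two-sided exact permutation test, the smallest that 4 against 3 mice allow. RA replicate 1, at 68.2%, lay below every CS mouse, and with it the difference went from -7.42 to -4.81 points (exact permutation test, p = 0.257). For CD3 transcripts the means were 1.53% ± 1.80 and 2.50% ± 2.10 (exact permutation test, p = 0.514). RA replicate 1 had the highest CD3 share, 8.39%, and with it the difference went from -0.97 to -2.44 points (exact permutation test, p = 0.257).

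Whether the CS and RA difference was another one in T cells of the same mice was tested on the difference between both labels in the 7 mice of the fit. Of 6,019 genes, 0 passed (0%; smallest adjusted p = 0.0758, for 9930021J03Rik) and 328 had an unadjusted p under 0.05. In T cells of those 7 mice the log2 differences were -0.53 for Gzma, -0.64 for Nkg7 and -0.72 for Ccl5 (over all 8 mice -0.26, -0.58 and -0.54), and the difference between labels, NK_T_cytotoxic minus T, was 0.04 for Gzma (SE 0.89), 0.26 for Nkg7 (SE 0.23) and 0.61 for Ccl5 (SE 0.27; limma adjusted p = 0.902).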

How the data were processed

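Values are UMIs from 10x 3' libraries of right lung digests, after the CD45 sort and mixing. The authors aligned reads with STAR and STARsolo 2.7.3a to GRCm38, counted spliced and unspliced UMIs, dropped cells under 1000 transcripts, removed free RNA with SoupX and named clusters in Seurat. They also dropped cells with a low share of unspliced transcripts and cells with a high share of mitochondrial transcripts. The deposited matrix therefore holds estimated counts: 1.28% of its values were whole within 1e-06, and cell sums matched the deposited totals in all 41,106 cells. The deposited cell table also gives the count of genes per cell and the percent of mitochondrial transcripts. That percent reached 6.44 in an NK_T_cytotoxic cell of CS replicate 3, above the upper limit that the paper gives.

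Here each cell was scaled to 10,000 and averaged per mouse, so no count model was used. Genes found in at least 10% of cells of either group were tested with limma 3.58.1 (R 4.3.3, empirical Bayes with trend) on log2(mean + 1), in mice with at least 20 cells (10 for gated cells), with Benjamini-Hochberg adjustment over all genes tested. For single values, exact permutation tests over mice, two-sided, were used (scipy 1.17.1). The shares with a CD3 or NK marker transcript compared between groups are the mean outcome of drawing 1500 UMIs per cell. This drawing left out 19 cells. All other shares of cells with a transcript were counted at each cell's full depth. The test was checked on simulated data. Doublets are those the authors labelled, and they were left out. Intervals of shares of cells cover counting error only; those of log2 differences come from limma's spread between mice. Mice are separate animals. The CD45 sort, the 7 or 8 mice and 19 to 97 cells per mouse limit precision.

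Gene lists, members and tests were chosen with earlier results of these data known. Genes named singly are 25 fixed genes, list members, and, since fewer than 6 were called in a direction, the 6 of each direction with the smallest unadjusted p whose groups did not overlap. Gene positions are those of GENCODE M21 on GRCm38. Of the genes in the lists, 9 are not analysed here. Alternatives to the pseudocount, filter, scaling, covariates, depth and mice were run.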

Additional observations from a re-analysis of the deposited data

Results flagged for a closer look

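In 5 of 77 groups of 4 mice examined, 1 mouse stood apart from the other 3 by Dixon's test, which chance gives in about 1 in 20 groups (3.85 of 77). Prf1 was at 8.14 per 10,000 in CS replicate 2, where the other CS mice lay between 5.22 and 5.45. Nkg7 was at 30.7 in RA replicate 3, where the other RA mice lay between 34.2 and 34.6, and it still lay above every CS mouse. Gm42418, a transcript that overlaps ribosomal RNA, was at 25.3 in CS replicate 1 against 15.7 to 17.0 in the other CS mice. Itgae was at 0.0338 in CS replicate 3 where the other CS mice were listed at 0, and at 0.132 in RA replicate 1, the mouse with 19 cells, against 0 to 0.0176 in the other RA mice. The Itgae values rest on single cells.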

How the results depend on the processing

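In none of the settings run did a gene pass the adjusted threshold, in the label as a whole, in cells with an NK marker and no CD3 transcript, or in the difference from T cells. The number of genes with an unadjusted p under 0.05, 619 in the label, was 409 when genes had to be found in at least 25% of cells, 971 at 1% and 326 with cells thinned to 1500 UMIs, each of which changes the number of genes tested, and 370 in place of 563 in the gated cells at 25%. Leaving out 1 mouse at a time gave 462 to 660 such genes in the label, 389 to 674 in the gated cells and 277 to 347 in the difference from T cells. The 0 calls stayed 0 in each. The sequencing lane as a block, which pairs 1 CS with 1 RA mouse, gave 528 and no call; with RA replicate 1 out of the fit, 3 pairs remained and CS replicate 1 no longer entered the difference.

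The difference in the share of immune cells, 0.811 points, was -0.339 as a share of lymphocytes and ranged from -0.00858 (without RA replicate 1) to 1.74 with 1 mouse left out. The share of cells with a CD3 transcript differed by -1.86 to 0.184 points with 1 mouse left out, positive only without RA replicate 3, and the share with an NK marker by -8.90 to -5.61.

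Of 71 genes followed through the settings, 60 did not change sign, counting Gzma, which was at 0 under quantile scaling, where it holds the same rank in each mouse. The other 11 turned at values that follow; the cause was not tested. With the same number of cells per mouse, Xcl1 was at -0.324, Klrk1 at 0.0282, Eomes at -0.0131 and Cx3cr1 at 0.0690. With thinning, Ccl3 was at 0.0219, Eomes at -0.185 and Tbx21 at -0.214. With labelled sex as a term, Cx3cr1 was at 0.00731, and with lane as a block Ccl3 at 0.0942. The sex labels of the CS libraries went against their Xist and Ddx3y, and no term by those transcripts was run. With RA replicate 1 added, Xcl1 was at -0.0627, Ifng at 0.0527, Klrb1c at 0.0387, Cx3cr1 at 0.0591 and Sftpb at -0.162. Scaled over short genes, which put the median over all genes at 0.0379, Ccl5 was at 0.0145, Klrb1c at 0.00402, Klrk1 at 0.00300 and Cx3cr1 at 0.0591. Ccl5 turned under this setting alone. With 1 mouse left out, Ccl3 ranged from -0.491 to 0.0942, Xcl1 from -0.112 to 0.285, Ifng from -0.530 to 0.126, Klrb1c from -0.188 to 0.0413, Tbx21 from -0.162 to 0.114, Cx3cr1 from -0.189 to 0.0872 and Itga1 from -0.0351 to 0.118.

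A comparison of cells with CD3 transcripts with the other cells, and equal weights for both, were not run, since no mouse had 10 such cells. No paired analysis by replicate number was possible because the groups compared share fewer than 2 numbers that mark the same animals. Depth limits genes under about 1 transcript per 10,000, where mice of 37 to 97 cells gave few counts.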
